A study of Mus musculus with 11 samples.

Results

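The genes described here are those with less RNA in a ribosome pull-down (IP) at postnatal day 14 (P14) than at both P7 and P21. The pull-down was aimed at excitatory neurons of the young mouse forebrain, and RNA of other cells was depleted but present in it. A gene was taken when its mean level was at least 5 TPM (transcript abundance per length, scaled to a fixed total per library) at P7 and at P21, when both means were at least 25% above its P14 mean, and when its highest P14 library lay below its lowest P7 and its lowest P21 library. Of 77179 genes in the table, 9480 had the required level at P7 and P21, and 33 of these met the rule. The members were thus selected on their IP values at all 3 ages. Their fall and recovery are given as a description with no test. The mirrored rule, in which P14 was the highest age, took 163 of the same 9480 genes (1.72%, against 0.348%). Both counts are for the TPM as deposited. Other scalings of the libraries took between 42 and 86 genes by the dip rule, and the mirrored count is not given for them. How far scaling shaped the difference was not tested.

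The series profiled RNA bound to tagged ribosomes, a method known as translating ribosome affinity purification, in NEX-RiboTag mice. These carry Cre recombinase under control of Neurod6 (also called NEX), a gene of postmitotic excitatory neurons of the cortex and hippocampus, on a C57BL/6J background for the Cre line. Cre switches on Rpl10a, a protein of the large ribosomal subunit, fused to eGFP, so anti-GFP beads pull down the ribosomes of cells with a history of Neurod6 activity, and the polyadenylated RNA on them was sequenced. Cortex and hippocampus were pooled, so the tissues cannot be told apart. The pull-down (IP) groups were untreated NEX-Cre;Rpl10aeGFP/eGFP mice at P7, P14 and P21, with 3 biological replicates each. Whole-tissue RNA (input) was sequenced at P7 in 2 libraries, replicate 1 from NEX-Cre;Rpl10aeGFP/eGFP and replicate 2 from Rpl10aeGFP/eGFP tissue without Cre. All groups, the Cre-negative input included, carried the Rpl10aeGFP allele on both chromosomes. Input was analysed at P7 only.

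Between P7 and P21 forebrain excitatory neurons form many of their synapses, the eyes open, and astrocytes and oligodendrocytes mature around them. Ribosome-bound RNA reflects both how much of an mRNA is present and how much of it is engaged by ribosomes, and the pull-down does not separate these. In such bulk samples fewer cells of a type and less RNA per cell cannot be told apart.

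The libraries carried the marks of excitatory neurons. The vesicular glutamate transporter gene Slc17a7 averaged 628, 1823 and 2046 TPM in the IP at P7, P14 and P21, and Neurod6 averaged 152, 94.8 and 74.4 TPM. Against the P7 input Neurod6 was 1.36-fold higher (adjusted p = 0.0118) and Slc17a7 1.17-fold, which was not called (adjusted p = 0.124). Rpl10a was 4.91 times as high in the P7 IP as in the mean of the inputs. Its inputs read 996 TPM with Cre and 487 TPM without, and against the Cre-positive input alone the ratio was 3.65. The Neurod6 inputs read 89.1 TPM with Cre and 135 TPM without, and against the Cre-positive input alone its ratio was 1.71. Genes of other cells were depleted but present: the P7 IP held 0.0901 of the input level of the inhibitory-neuron gene Gad1, 0.0647 of the astrocyte gene Gfap and 0.0553 of the microglial gene Cx3cr1. Of 27 defining markers of 10 cell types, 0 were at 0 TPM in any IP library. Sequencing depth is unknown, because TPM keep no record of it.

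Of the 33 genes, 26 are protein coding in RefSeq, 2 are long noncoding RNAs and 5 had no entry under the same symbol. Members with an established name encode proteins of the endosome and lysosome (Cd63), vesicle traffic and release (Rims3, Rab33a, Exoc3l, C2cd4c), secreted factors and proteases (Npy, Klk8, Dkkl1), the endoplasmic reticulum (Pdia6, Manf), cell death (Bok), gene regulation and SUMO attachment (Drap1, Pias3, Zfp768), aldehyde and lipid metabolism (Aldh2, Acot1) and the ribosome (Fau). Cdr2, Tcte2, Rassf2, Mxra7, N4bp3 and Fam220a complete the 23 members with such a name. The other 10 have clone-based or predicted names or an identifier only.

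Promoter sequences are shown for 6 of these genes, so that the letters behind the counts that follow can be seen. RefSeq promoter windows (assembly GRCm38.p6, a different build from mm39 of the expression values) covered 250 bases before to 50 after the start and matched 24 of the 33 genes by symbol. Aldh2, Manf, Exoc3l, Gm715, Gm2415, AV356131 and 3 genes without a symbol were not matched. All lines below run 5′ to 3′ on the plus strand, end at the base before the start site except for Fam220a, which ends with its motif, and carry the matched letters in capitals. In Cd63 (chr10:128909195-128909344) these are TGACG, the core of the cAMP response element, on the shown strand. In Rims3 (chr4:120854699-120854798) they are GGGCGG, the GC box bound by Sp1, on the other strand, 3 times. In Pdia6 (chr12:17266439-17266588) they are the core of the endoplasmic reticulum stress element, CCAAT and CCACG with 9 free bases between. In Fau (chr19:6057887-6057946) and Fam220a (chr5:143548660-143548720) they are TGACGTCA, the full cAMP response element. In Npy (chr6:49822510-49822709) they are CCAAT, on the other strand, and GGGCGG.
Cd63: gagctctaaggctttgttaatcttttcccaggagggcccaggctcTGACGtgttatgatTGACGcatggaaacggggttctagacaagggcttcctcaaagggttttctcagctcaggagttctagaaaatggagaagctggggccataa
Rims3: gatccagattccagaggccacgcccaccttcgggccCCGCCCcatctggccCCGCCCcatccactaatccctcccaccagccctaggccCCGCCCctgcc
Pdia6: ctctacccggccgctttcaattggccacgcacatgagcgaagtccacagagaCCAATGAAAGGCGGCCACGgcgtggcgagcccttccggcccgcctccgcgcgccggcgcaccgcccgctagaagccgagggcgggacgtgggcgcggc
Fau: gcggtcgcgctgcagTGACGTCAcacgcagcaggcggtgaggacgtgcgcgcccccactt
Fam220a: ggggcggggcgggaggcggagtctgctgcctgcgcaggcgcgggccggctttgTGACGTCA
Npy: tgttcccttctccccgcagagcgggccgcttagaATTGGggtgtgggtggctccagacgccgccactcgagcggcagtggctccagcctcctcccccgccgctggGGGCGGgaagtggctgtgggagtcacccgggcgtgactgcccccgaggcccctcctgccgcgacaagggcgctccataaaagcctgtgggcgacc

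Searched on both strands over the whole 300-base windows, TGACGTCA stood in 2 of the 24 promoters, Fau and Fam220a (8.33%), against 4% of 7200 promoters of genes with the required level and 2.03% of all 27025 genes with a promoter. It contains TGACG, which stood in 7 of 24 (29.2%, against 38.7% and 23%). The element printed for Pdia6 stood in 1 of 24 (4.17%), against 0.167% of the promoters at the required level and 0.137% of all. GGGCGG stood in 15 (62.5%, against 71.5% and 38.2%) and CCAAT, which the Pdia6 element contains, in 9 (37.5%, against 43% and 41.1%). CACGTG, an E-box, stood in 3 (12.5%, against 12.3% and 8.09%). The AP-1 letters TGANTCA were in none of the 24, against 5.38% and 8.97%. These are matches of letters, not evidence of a site. Median GC content was 61.3% in members and 61.7% in the genes at the required level, with 21.5 and 22 CpG per promoter. The members' genomic spans were shorter, with a median of 9953 bases (28 members) against 22427 (8910 genes).

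The fall from P7 to P14 was larger than the recovery in 23 members, whose P7 mean exceeded their P21 mean, and smaller in 10. The ratio of the P7 to the P14 mean ran from 1.253 to 4.11 with a median of 1.49, and that of P21 to P14 from 1.251 to 1.86 with a median of 1.34. Taking the smaller of these ratios for each gene, 6 members reached 1.5 and 15 stayed below 1.3. Mean levels over the 9 IP libraries ran from 4.79 to 683 TPM with a median of 16.5, and 13 members averaged below 10 TPM. In the limma fit over all 19008 genes tested, 32 of the 33 were called lower at P14 than at P7 (22.8% of all genes tested were) and 28 higher at P21 than at P14 (8.53% of all genes, 9.82% of those at the required level). The rule used both comparisons, so nothing is read from these counts.

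**Figure D1:**
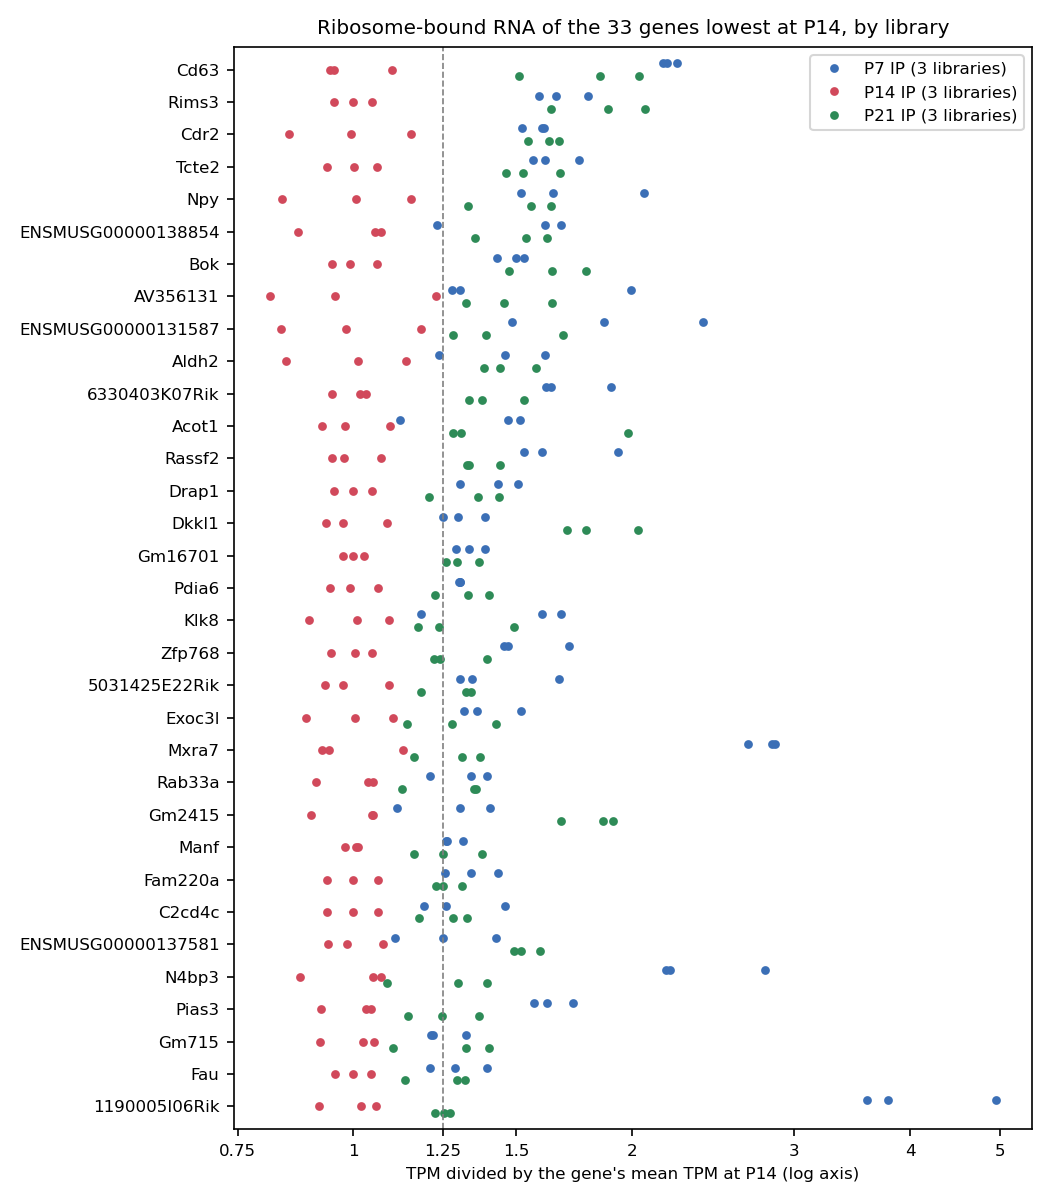
Each of the 33 genes in each of the 9 IP libraries, as TPM divided by that gene's P14 mean on a log axis, ordered from the deepest dip (Cd63) to the shallowest (1190005I06Rik), with the ratio the rule asks for as a dashed line. In each row the 3 red P14 points lie left of the blue P7 and green P21 points, as the rule requires; P7 points lie far right of P21 for 1190005I06Rik, Mxra7 and N4bp3, and left of them for Dkkl1 and Gm2415.

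Cd63, a tetraspanin of late endosomes, lysosomes and exosomes, had the deepest dip by the smaller ratio. Its IP libraries read 29.2, 30.2 and 29.5 TPM at P7, 12.9, 14.9 and 12.7 TPM at P14, and 20.4, 27.5 and 25.0 TPM at P21, against 96.4 and 99.3 TPM in the inputs. The P14 libraries lay 2.20-fold below P7 and 1.80-fold below P21, and each P21 library stayed below each P7 library. Its level at P21 was lower than at P7 by limma (log2 change -0.29 ± 0.10 SE, adjusted p = 0.0254), but without P21 replicate 1, the lowest of its age, the change was -0.17 (adjusted p = 0.0833). The call was also lost without P7 replicate 2 (adjusted p = 0.067) or replicate 3 (adjusted p = 0.0524). Other tetraspanin genes, chosen after their values were seen, did not meet the rule: Cd81 averaged 107, 143 and 133 TPM and Cd9 4.99, 3.71 and 3.89 TPM at P7, P14 and P21. Cd82 averaged 7.65, 1.54 and 2.52 TPM, a dip that missed the rule on its P21 level and on overlapping P14 and P21 libraries.

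Among genes of vesicle release, Rims3 encodes a short RIM protein, a family of the presynaptic active zone. It read 40.4, 35.8 and 37.3 TPM at P7, 23.6, 21.5 and 22.5 TPM at P14, and 42.5, 36.8 and 46.6 TPM at P21. The P7 and P21 ranges overlapped, and the levels at those ages were not called different (log2 change 0.14 ± 0.12 SE, adjusted p = 0.348). The other RIM genes, named after their values were seen, rose over the same week. Rims1, the long scaffold form, averaged 29.6 ± 4.75 (SD, n = 3), 66.9 ± 5.49 and 88.8 ± 12.1 TPM. Rims2 averaged 28.5, 46.7 and 46.7 TPM and Rims4 39.1, 51.4 and 51.3 TPM. By limma Rims1, Rims2 and Rims4 rose from P7 to P14 by 1.16, 0.70 and 0.39 on the log2 scale (adjusted p = 2.19e-05, 1.33e-04 and 3.10e-04). Rims3 was thus the lowest RIM gene at P14 while it lay above Rims1 and Rims2 at P7, on a scale that is already per transcript length.

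**Figure D2:**
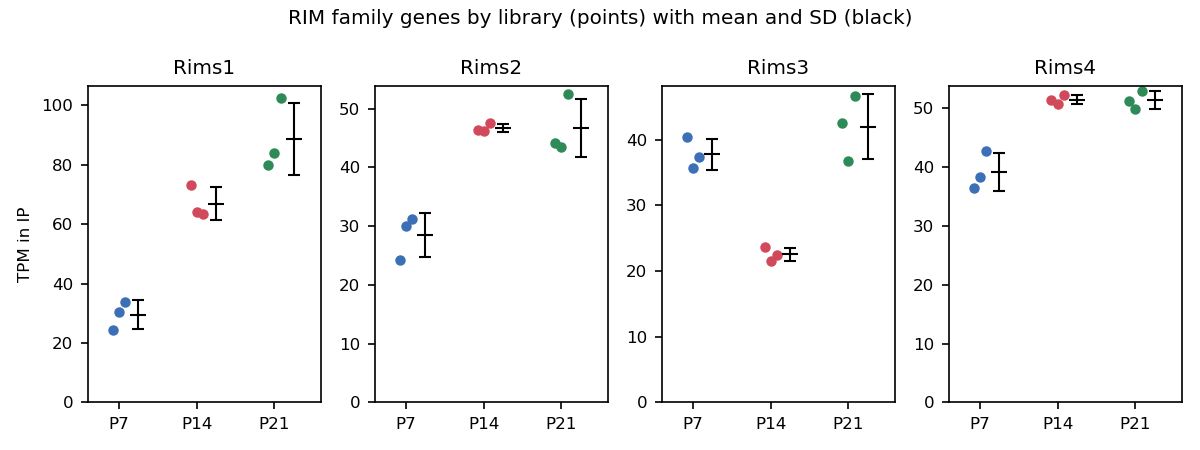
TPM of the 4 RIM genes in each IP library (coloured points) with the mean and SD of the 3 libraries per age (black). Rims3 falls to 22.5 TPM at P14 and returns to 42.0 TPM at P21, while the P14 points of Rims1, Rims2 and Rims4 all lie above their P7 points.

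Rab33a, a small GTPase of vesicle traffic, read 42.3, 40.7 and 36.8 TPM at P7, 31.4, 27.7 and 31.9 TPM at P14, and 41.1, 34.3 and 40.9 TPM at P21. Its paralog Rab33b, chosen after its values were seen, averaged 18.4, 12.5 and 9.70 TPM and fell at both steps by limma (adjusted p = 8.40e-05 and 0.0039). Exoc3l, a relative of an exocyst subunit, averaged 6.79, 4.85 and 6.22 TPM, and the C2-domain gene C2cd4c 7.67, 5.88 and 7.44 TPM. None of these 3 members was called different between P7 and P21, with changes of -0.04, -0.11 and -0.04 for Rab33a, Exoc3l and C2cd4c (adjusted p = 0.704, 0.351 and 0.727).

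Of the secreted factors, Npy encodes neuropeptide Y, a transmitter peptide of a class of inhibitory neurons. Its IP libraries read 42.6, 31.4 and 34.0 TPM at P7, 23.8, 17.3 and 20.8 TPM at P14, and 27.5, 33.8 and 32.2 TPM at P21, while the inputs held 179 and 208 TPM. P7 and P21 overlapped (log2 change -0.19 ± 0.14 SE, adjusted p = 0.248). Npy was the only member on the list of 25 inhibitory neuron markers tested, of which only 6 had the level that the rule requires. Of that list 7 rose and 3 fell from P7 to P14, and 6 rose and 4 fell from P14 to P21 by limma, with medians of 0.04 and 0.01 on the log2 scale. Of all genes tested 26.7% rose and 22.8% fell at the first of these steps, and 8.53% and 19.7% at the next. The summed TPM of the list without Cck, a peptide gene that excitatory neurons also express, was 144 to 160 at P7, 141 to 152.5 at P14 and 144 to 178 at P21, against 1268 to 1425 in the inputs. Sst, the peptide gene of another inhibitory class, chosen after its values were seen, averaged 32.2, 30.9 and 41.5 TPM in the IP. The part of inhibitory-neuron RNA in the course of Npy was not tested.

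Npy also stood on the list of 32 neuropeptide and growth factor genes, of which 21 rose and 3 fell from P7 to P14, and 12 rose and 4 fell from P14 to P21, beside those same shares of all genes. Klk8, a secreted serine protease (neuropsin), read 24.0, 25.2 and 17.7 TPM at P7, 16.4, 15.2 and 13.4 TPM at P14, and 18.6, 22.4 and 17.6 TPM at P21. Its lowest P7 library was P7 replicate 3, without which the P21 level was called lower than P7 (log2 change -0.32, adjusted p = 0.0288, against -0.17 and 0.282 with all libraries). Dkkl1, a secreted relative of the Dickkopf proteins, read 63.6, 59.4 and 57.3 TPM at P7, 49.9, 44.7 and 42.8 TPM at P14, and 77.9, 81.7 and 93.0 TPM at P21. Its P21 libraries all lay above its P7 libraries (log2 change 0.48 ± 0.08 SE, adjusted p = 4.92e-04), the opposite order from Cd63.

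Manf and Pdia6 act in the endoplasmic reticulum. Manf is a secreted and luminal factor induced when unfolded protein accumulates there, and Pdia6 is a protein disulfide isomerase. Manf read 214, 205 and 205 TPM at P7, 165, 164 and 159 TPM at P14, and 224, 203 and 189 TPM at P21, so its P14 libraries were within 6 TPM of each other. Pdia6 read 67.4, 67.3 and 67.1 TPM at P7, 54.8, 51.2 and 48.7 TPM at P14, and 72.4, 63.2 and 68.7 TPM at P21. Both were back at their P7 level by P21, with ranges that overlapped and log2 changes of -0.02 ± 0.06 SE for Manf and 0.02 ± 0.06 SE for Pdia6 (adjusted p = 0.792 and 0.835).

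Most genes of the same system did something else. Of 33 unfolded protein response and chaperone genes tested, 17 rose and 7 fell from P7 to P14 (26.7% and 22.8% of all genes tested), Manf and Pdia6 being among the 7 by the rule. From P14 to P21, 9 rose and 4 fell (8.53% and 19.7% of all genes). The median changes were 0.25 and 0.04, against 0.03 and -0.08 for all genes. The 4 that fell from P14 to P21 became 1 without P21 replicate 1, and 2 without P21 replicate 2, P14 replicate 2 or P14 replicate 3. The chaperone genes Hspa5 (BiP) and Hsp90b1 (Grp94) averaged 68.4, 90.4 and 120.5 TPM and 61.0, 80.3 and 112 TPM at the 3 ages. Pdia4, another disulfide isomerase, averaged 11.2, 15.8 and 20.3 TPM. Each rose at both steps by limma, the adjusted p lying between 4.92e-04 and 0.0137. Not all disulfide isomerase genes rose. Pdia3 averaged 94.4, 89.2 and 87.8 TPM, with neither step called by limma (adjusted p = 0.274 and 0.781). P4hb averaged 59.1, 46.2 and 43.4 TPM and fell from P7 to P14 by limma (adjusted p = 0.029). Creld2, a further stress-induced factor, fell from 16.4 ± 0.89 to 14.2 ± 1.02 TPM and then rose to 19.2 ± 0.60 TPM (SD, n = 3; adjusted p = 0.0297 and 0.0015), outside the rule because its P7 to P14 ratio was too small. These genes were named after their values were seen.

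**Figure D3:**
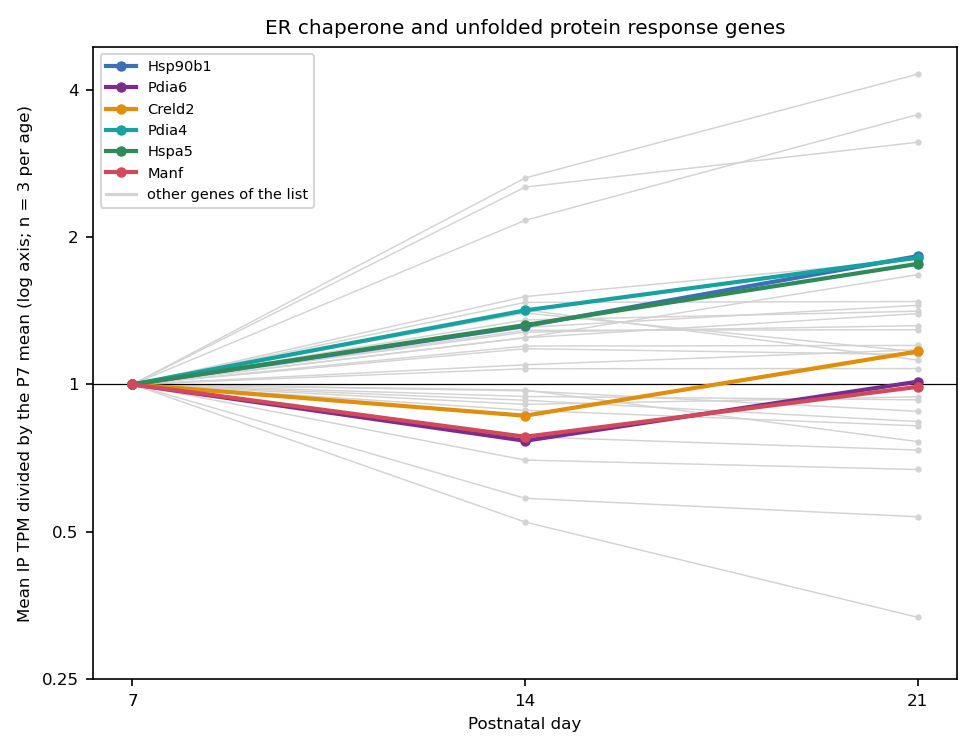
Mean IP TPM of the 33 tested unfolded protein response and chaperone genes at postnatal days 7, 14 and 21, divided by the P7 mean on a log axis (3 libraries per age, no error bars). Manf and Pdia6 dip at day 14 and return to 1 at day 21, Creld2 dips less and ends above 1, and Hspa5, Hsp90b1 and Pdia4 rise at both steps.

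Bok, a member of the Bcl-2 family of cell death regulators, was among the 5 members above 100 TPM in all 9 IP libraries, with Drap1, Manf, Fau and the clone-named 6330403K07Rik. Bok read 161, 158 and 151 TPM at P7, 100.2, 112 and 105 TPM at P14, and 156, 188.5 and 173 TPM at P21. P7 and P21 overlapped (log2 change 0.13 ± 0.07 SE, adjusted p = 0.122), but without P21 replicate 1 the P21 level was called higher (0.20, adjusted p = 0.019). Its family members Bax and Bak1, chosen after their values were seen, averaged 272, 184 and 165 TPM and 52.8, 39.3 and 26.3 TPM, and both were lower at P21 than at P7 by limma (adjusted p = 2.07e-04 and 9.38e-06). Rassf2, a Ras-association domain protein, read 8.72, 7.20 and 6.90 TPM at P7, 4.83, 4.27 and 4.41 TPM at P14, and 6.00, 5.97 and 6.49 TPM at P21. Its P21 libraries lay below all P7 libraries (log2 change -0.26 ± 0.09 SE, adjusted p = 0.0247), and the call was lost without P7 replicate 1 (-0.17, adjusted p = 0.0885), P21 replicate 1 (adjusted p = 0.0679) or P21 replicate 2 (adjusted p = 0.0702).

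Drap1, the corepressor that pairs with Dr1, was the most abundant member. It read 823, 783 and 713 TPM at P7, 546, 572 and 521 TPM at P14, and 746, 786 and 660 TPM at P21, and P7 and P21 overlapped (log2 change -0.08 ± 0.08 SE, adjusted p = 0.395). With quantile normalisation its P21 level was called lower than at P7 (-0.20, adjusted p = 0.0345). Dr1 itself, chosen after its values were seen, averaged 30.6, 33.4 and 25.8 TPM and was not called different between P7 and P14 (adjusted p = 0.159). Pias3, a SUMO ligase that inhibits STAT3, read 12.1, 12.9 and 11.7 TPM at P7, 7.72, 6.90 and 7.81 TPM at P14, and 8.58, 9.33 and 10.2 TPM at P21. It had recovered only in part by P21 (log2 change -0.36 ± 0.08 SE against P7, adjusted p = 0.00263). Its relatives Pias1 and Pias2, also chosen after their values were seen, averaged 8.86, 11.8 and 12.4 TPM and 25.9, 32.3 and 32.5 TPM, both rising from P7 to P14 by limma (adjusted p = 0.00165 and 0.00625), and Pias4 averaged 12.5, 12.5 and 13.4 TPM. The zinc finger gene Zfp768 averaged 6.80, 4.40 and 5.67 TPM and was called lower at P21 than at P7 (log2 change -0.23 ± 0.09 SE, adjusted p = 0.0489). That call was lost when any of P7 replicates 1 and 2, the 3 P14 libraries, or P21 replicates 1 and 2 was left out, the adjusted p then lying between 0.0575 and 0.17. It was the only member among 351 Zfp genes tested, of which 165 had the level that the rule requires.

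Aldh2, the mitochondrial aldehyde dehydrogenase, read 19.1, 24.8 and 22.5 TPM at P7, 15.6, 13.04 and 17.6 TPM at P14, and 22.2, 21.4 and 24.3 TPM at P21. Acot1, a cytosolic acyl-CoA thioesterase, read 4.59, 6.18 and 6.00 TPM at P7, 3.78, 4.00 and 4.47 TPM at P14, and 8.09, 5.23 and 5.33 TPM at P21. For both genes P7 and P21 overlapped and the change was not called (adjusted p = 0.808 and 0.522). Acot1 is uncertain, since its near-identical neighbour Acot2 could share its reads. Acot2, chosen after its values were seen, averaged 2.75, 6.67 and 7.89 TPM, rising from P7 to P14 while Acot1 fell.

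Fau encodes a ubiquitin-like protein fused to the small-subunit ribosomal protein eS30, and it has near-copies in the genome that could share its reads. It read 292, 254 and 270.2 TPM at P7, 200.5, 209 and 219 TPM at P14, and 239, 271 and 277 TPM at P21. Of 85 cytosolic ribosomal protein genes tested, 1 rose and 72 fell from P7 to P14 (26.7% and 22.8% of all genes tested), with a median of -0.44, so the fall of Fau was shared by most of its list. From P14 to P21, 6 rose and 10 fell (8.53% and 19.7% of all genes), with a median of 0.01, and Fau was the only one that met the rule. The P14 to P21 counts moved with single libraries: 14 rose and 6 fell without P21 replicate 1, 3 rose without P21 replicate 2, and 5 and 3 fell without P14 replicate 2 and P14 replicate 3. With median-of-ratios scaling they were 18 and 4.

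Mxra7, a membrane protein first described with matrix remodelling genes, and N4bp3, a binding partner of the ubiquitin ligase Nedd4, stayed furthest below their P7 level at P21 among the members with an established name. Mxra7 read 22.4, 22.2 and 21.0 TPM at P7, 8.89, 7.39 and 7.25 TPM at P14, and 10.8, 10.3 and 9.13 TPM at P21. N4bp3 read 13.1, 10.3 and 10.4 TPM at P7, 4.13, 4.95 and 5.05 TPM at P14, and 5.13, 6.58 and 6.11 TPM at P21, so its highest P14 library was just below its lowest P21 library. Both remained below P7 at P21, by 1.05 ± 0.09 and 0.82 ± 0.11 SE on the log2 scale (adjusted p = 1.70e-06 and 1.07e-04). For these genes the course was mainly a fall between P7 and P14 with a small rise afterwards. Cdr2, an onconeural antigen first found in cerebellar degeneration, read 5.49, 5.53 and 5.23 TPM at P7, 3.96, 3.42 and 2.93 TPM at P14, and 5.60, 5.31 and 5.73 TPM at P21. Its paralog Cdr2l, chosen after its values were seen, averaged 12.0, 5.41 and 5.27 TPM.

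Tcte2 averaged 10.7, 6.54 and 10.2 TPM, and Fam220a 23.0, 17.1 and 21.6 TPM, with overlapping P7 and P21 libraries in both. The RefSeq span of Tcte2 overlaps that of Afdn, which averaged 36.2, 33.5 and 31.1 TPM. Drap1, Pdia6, N4bp3, Pias3, 5031425E22Rik and 1190005I06Rik also overlap another gene, none of them a member. The sources used here do not say whether counting used strand, so reads of such pairs may not be separable.

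The 10 genes without an established name are given for completeness and were chosen after their values were seen. The deepest fall of all members was in 1190005I06Rik, from 24.1, 18.5 and 17.5 TPM at P7 to 4.48, 4.97 and 5.16 TPM at P14, with 6.11, 5.97 and 6.19 TPM at P21. 6330403K07Rik read 401, 341 and 344 TPM, then 218, 214.5 and 199.7 TPM, then 322, 290.3 and 281 TPM, and its P21 level was lower than at P7 (log2 change -0.28 ± 0.08 SE, adjusted p = 0.00808). Gm2415 rose above its P7 level, from 40.1 to 57.1 TPM, after 31.4 TPM at P14 (log2 change of P21 against P7 0.50 ± 0.10 SE, adjusted p = 0.00122). The other 7 averaged between 3.64 and 22.4 TPM at P14.

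The ratio of the P21 to the P7 mean ran from 0.304 to 1.43 over the 33 genes with a median of 0.964, against a median of 0.959 over the genes at the required level. In 16 members the means were within 10% of each other (48.5%, beside 1894 of the 9480 genes at the required level), and in 22 the libraries of the ages overlapped (66.7%, against 27.1%). By limma 3 members were higher at P21 than at P7 (9.09%, against 27.3% of all genes tested and 31.9% of those at the required level): Dkkl1, Gm2415 and ENSMUSG00000137581. Another 8 were lower (24.2%, against 32.6% and 38.7%): 1190005I06Rik, Mxra7, N4bp3, Pias3, Cd63, 6330403K07Rik, Rassf2 and Zfp768. The median change was -0.05, against -0.04 for all genes. These P7 and P21 libraries were used by the rule, which bounds both ends from below, so the counts are described and not tested against those of other genes. With median-of-ratios scaling 4 of the 33 were called higher and 4 lower, the calls of Cd63, Rassf2, Zfp768 and 6330403K07Rik being lost, and with quantile normalisation 3 were higher and 6 lower. The call of ENSMUSG00000137581 (log2 change 0.26, adjusted p = 0.0472) was lost when any P14 or P21 library, or P7 replicate 2 or 3, was left out, with adjusted p from 0.0539 to 0.167. Applied anew without P7 replicate 1, the rule took 33 genes, 1 of them higher at P21. Without P21 replicate 1 it took 37, 5 of them lower. The shares of all genes in those fits are not given.

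At P7 the pull-down could be set against whole tissue, with inputs that the rule did not use, though it did use the P7 IP libraries. The rule asks for P7 IP values above those of P14, which can favour genes high in the P7 IP. The counts are therefore described and not tested against those of other genes. By limma 16 of the 33 were higher in the IP (48.5%, against 18.6% of all genes tested and 28.5% of those at the required level), 10 were lower (30.3%, against 51.1% and 46.4%) and 7 were not called. The median change was 0.16, against -0.33 for all genes and -0.16 for those at the required level. In 17 members all 3 IP libraries exceeded both inputs (51.5%, against 31.6% of the genes at the required level) and in 10 they lay below both (30.3%, against 50.6%). Scaling matters here: median-of-ratios scaling moved the median of all genes by 0.42, quantile normalisation by 0.38 and rescaling after removal of ribosomal protein, haemoglobin and mitochondrially encoded genes by -0.10. Under these, 21, 18 and 15 of the 33 were higher and 7, 7 and 11 lower (32 tested in the last), and the members' medians were 0.65, 0.59 and 0.11 against 0.09, 0.04 and -0.44 for all genes. Applied anew without P14 replicate 1, the rule took 41 genes, of which 28 were among the 33. Of those 41, 16 were lower in the IP, and the share of all genes in that fit is not given.

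The members most enriched in the IP were Dkkl1, Drap1, Fam220a and Bok among those with an established name. Dkkl1 read 63.6, 59.4 and 57.3 TPM in the IP and 22.4 and 19.8 TPM in the inputs, a 2.85-fold excess (log2 change 1.47 ± 0.09 SE, adjusted p = 3.21e-07). Drap1 was 2.62-fold, Fam220a 2.46-fold and Bok 2.35-fold higher (adjusted p = 3.57e-07, 2.73e-06 and 3.29e-07), with no overlap between IP and input libraries. Klk8 was 1.97-fold and Tcte2 1.55-fold higher (adjusted p = 2.76e-04 and 3.85e-04). Rims3 was called higher (log2 change 0.43, adjusted p = 0.0171), but its inputs were 33.4 TPM with Cre and 23.0 TPM without, and the call was lost against the Cre-positive input alone (0.17, adjusted p = 0.248) or without P7 IP replicate 1 (0.39, adjusted p = 0.0502). Input libraries are single per genotype, so an effect of Cre on any member cannot be told apart from the spread between libraries.

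The most depleted members were Npy, Acot1, Cd63, Aldh2 and Rassf2, at 0.186, 0.241, 0.303, 0.323 and 0.396 of the input level. Their log2 changes were -2.40, -1.88, -1.69, -1.59 and -1.24 (adjusted p from 3.47e-07 to 3.30e-06), and every IP library lay below both inputs. Defining markers of other cells held ratios below or within the range of these members, and none above it. Below it lay, among others, 0.0553 for Cx3cr1, 0.0647 for Gfap and Sst, 0.0901 for Gad1, 0.162 for Mbp and 0.179 for Mog. Within it lay 0.230 for Hba-a1, 0.233 for Alas2 and 0.379 for Foxj1. Marker lists of other cells did not share 1 course between P7 and P14, where 26.7% of all genes tested rose and 22.8% fell. By limma 19 of 22 astrocyte, 18 of 20 oligodendrocyte, 16 of 20 microglial and 8 of 15 oligodendrocyte precursor genes rose and 0, 1, 1 and 2 fell. Of 17 endothelial, 16 mural and fibroblast, 11 choroid plexus and ependymal and 6 blood cell genes, 4, 3, 3 and 0 rose and 2, 1, 1 and 0 fell, and the 25 inhibitory neuron genes are given above. The summed TPM of the astrocyte list in the IP was 465 to 588 at P7, 857 to 947 at P14 and 1023 to 1251 at P21. For oligodendrocytes it was 67.8 to 80.2, 385 to 496 and 615 to 872 TPM, and for microglia 35.8 to 43.8, 59.8 to 75.5 and 66.7 to 85.7 TPM. The part of such RNA in the members' course was not tested.

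Pdia6, Zfp768, Pias3 and C2cd4c were depleted less, with log2 changes of -0.68, -0.71, -0.47 and -0.36 (adjusted p = 6.53e-06, 9.30e-05, 6.97e-04 and 0.00625). The call of Pias3 was lost with median-of-ratios scaling (adjusted p = 0.905) and quantile normalisation (adjusted p = 0.889), under both of which C2cd4c lay above the input. Quantile normalisation also ended the call of Zfp768 (-0.17, adjusted p = 0.143). Manf, Cdr2, Rab33a, Exoc3l, Fau and N4bp3 were not called, with ratios between 0.860 and 1.12. Median-of-ratios scaling called Cdr2 (0.41), Exoc3l (0.48), Rab33a (0.54) and Fau (0.65) higher in the IP, with adjusted p from 2.32e-05 to 0.00719, and quantile normalisation called Cdr2 (0.59), Exoc3l (0.63) and Rab33a (0.25) higher, with adjusted p from 0.000142 to 0.0345. Manf was called higher with the former (0.49, adjusted p = 0.000502) and lower with the latter (-0.29, adjusted p = 0.0011). Without P7 IP replicate 1 N4bp3 was called lower (-0.32, adjusted p = 0.0401), and Fau was called higher without P7 IP replicate 2 (adjusted p = 0.0421) or P21 replicate 1 (adjusted p = 0.0467). Manf was level in IP and input as deposited (208 TPM in each) but called higher in the IP with median-of-ratios scaling and lower with quantile normalisation. Mxra7 was higher in the IP (log2 change 0.36, adjusted p = 0.00582).

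**Figure D4:**
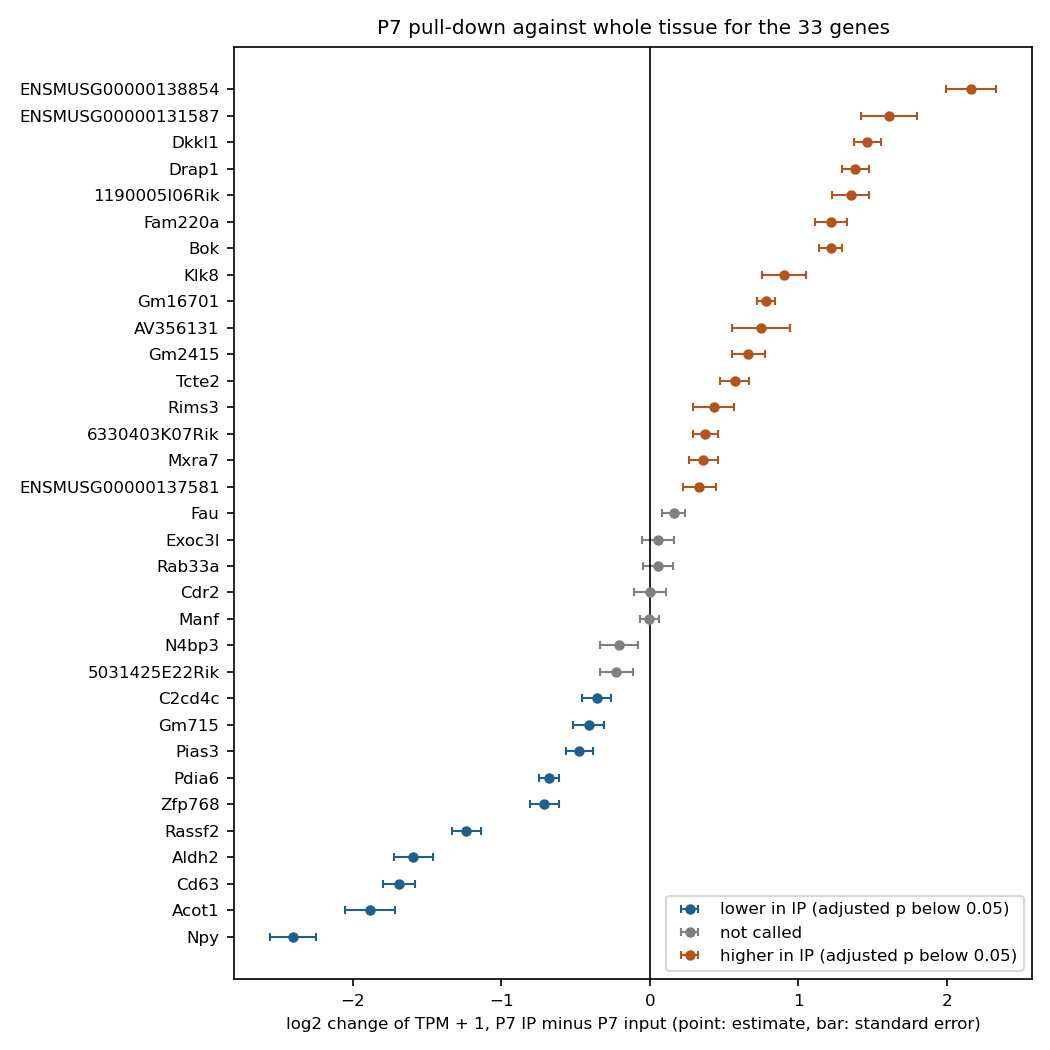
Log2 change of TPM + 1 between the 3 P7 IP and the 2 P7 input libraries for the 33 genes (point: limma estimate, bar: standard error), coloured by the call at an adjusted p below 0.05. The 16 genes called higher run from ENSMUSG00000137581 to ENSMUSG00000138854, and the 10 called lower from C2cd4c to Npy at -2.40.

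The set has no sharp edge. The members with the smallest ratio beside 1190005I06Rik and Gm715 were Fau (1.252), Pias3 (1.254) and N4bp3 (1.262), and the nearest genes outside were Raly (1.24995), Cnn3 (1.248) and Blvrb (1.246). At the level threshold the lower of the P7 and P21 means was 5.42 TPM for Cdr2, 5.59 TPM for Acot1 and 5.67 TPM for Zfp768. Vwa1 (3.92 TPM), Itga2b (3.87 TPM) and Ikbip (3.71 TPM) were the nearest outside with established names. A further 37 genes met the level and the ratio but had overlapping libraries, 123 met the level and did not overlap but missed the ratio, and 176 met all but the level. Among the 44 gene lists, 39 held no member, and the 5 that did held 5 distinct members (Npy, Pdia6, Manf, Fau and Zfp768). Of all genes at the required level, 0.348% met the rule. Some lists held few genes at that level, the microglial list only 1. Nothing is therefore read from a list without a member.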

How the data were processed

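Polyadenylated RNA of 9 pull-down and 2 whole-tissue libraries was analysed from a TPM table of 77179 genes that the authors deposited. The tools recorded in the submitters' processing notes were DESeq2 1.46.0, Salmon 1.10.0 and fastp 1.0.1, on build mm39; the step of each tool, the annotation and the strand setting were not stated there. TPM keep no depth, so the spread between replicates, which the labels call biological, is the sole measure of precision. Symbols came from an Ensembl table and matched 50886 identifiers.

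The 33 genes and all gene lists were chosen with earlier results of these data known. Named were the 20 deepest dips, the 10 highest levels and up to 4 members per list. The 3 genes on either side of each threshold and the 4 largest called changes in each direction were also named. All these had an established symbol. Other genes are marked in the text, apart from controls, cell type markers (Cck included) and the overlapping gene Afdn.

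The 19008 genes that reached 1 TPM in 2 or more libraries were fitted as log2(TPM + 1) by limma 3.58.1 (R 4.3.3) on all 11 libraries, 1 mean for each group, leaving 7 residual degrees of freedom. Empirical Bayes moderation followed the trend with mean level, and p-values were adjusted by Benjamini-Hochberg over the genes tested. Calls are two-sided at an adjusted p below 0.05. Fold changes on this scale understate changes of low genes. The age comparisons share libraries. Promoter letters were searched for 16 motifs. The code was tested on simulated data. Alternatives were pseudocounts, filters, scalings, moderation, a replicate block, fewer groups, each library left out, and stricter or looser rules. Python 3.11.15 with matplotlib 3.10.9 drew the figures.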

Additional observations from a re-analysis of the deposited data

How the results depend on the processing

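The number of genes meeting the rule depended on the scaling: it was 86 with median-of-ratios scaling and 63 with quantile normalisation, both holding all 33, and 42 after rescaling, holding 32. A ratio of 1.5 left 6, a minimum of 10 TPM left 20, and dropping the non-overlap requirement gave 70. Leaving out a library gave 33 to 45, with 24 (without P21 replicate 3) to 33 shared.

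With the rule applied anew, 5 of 86 members were higher at P21 than P7 with median-of-ratios scaling. At a ratio of 1.5 it was 0 of 6 (1 to 3 members leaving out a library). Those lower numbered 18 of 86 with median-of-ratios scaling and 15 of 63 with quantile normalisation. They were 1 of 6 at a ratio of 1.5 and 3 of 20 at 10 TPM (5 to 9 leaving out a library). Members higher in IP than input numbered 52 of 86 with median-of-ratios scaling and 34 of 63 with quantile normalisation. They were 3 of 6 at a ratio of 1.5 and 26 of 70 without the overlap requirement, and 13 to 23 leaving out a library. Those lower numbered 19 of 42 after rescaling and 2 of 6 at a ratio of 1.5. They were 18 of 70 without the overlap requirement and 4 of 20 at 10 TPM, and 9 to 16 leaving out a library. The median IP change was 0.56 with median-of-ratios scaling, 0.36 with quantile normalisation, -0.21 after rescaling and 0.40 at 10 TPM, and 0.057 to 0.349 leaving out a library, the highest without P21 replicate 3 or P7 replicate 3 (0.33). The median P21 change was -0.07 to -0.01 leaving out a library. The sets differ in size here, with 33 to 45 genes when a library was left out. Median-of-ratios scaling also moved the median IP change of all genes by 0.42. Shares of all genes called under each setting are not given, so nothing is read from these counts.

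Against input, Manf turned to 0.49 with median-of-ratios scaling, C2cd4c to 0.083 and Gm715 to 0.011, and with quantile normalisation C2cd4c turned to 0.19 and Gm715 to 0.17. Over the genes named and their 21 alternatives, 36 results for P21 minus P7 lost their call and 10 gained one, and 19 and 17 did for IP minus input, results that changed sign included. The cause was not tested.

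The labels link same-numbered libraries of different ages by a number only. Their deviations from the age means correlated at 0.01 to 0.18 over 9 pairs, 1 of them over 0.1. In 9 of 18 comparisons of a library with another age, the own number correlated best. Whether same-numbered libraries shared a batch was not tested. With the replicate number as a block, 3 members were higher and 7 lower at P21 than P7, and 16 were higher and 10 lower in IP than input. The block ended the call of Zfp768 (adjusted p = 0.0583) and of no other member. Its medians were -0.05 and 0.14. Depth is unknown, so members near 5 TPM cannot be given a counting error.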
